A study of Macaca mulatta with 4 samples.

Results

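The regions described here are stretches of open chromatin that were called in both androgenetic (AG) libraries and in neither gynogenetic (GG) library, and that lay within 50 kb of a region called in all 4 libraries. There were 2612 of them among 222776 merged regions on chromosomes 1 to 20 of the rhesus macaque (Macaca mulatta). Overlapping or touching hotspots of the 4 libraries were first merged into regions. A region was AG-only when each AG list had a hotspot in it and neither GG list had one. The gap was counted in bp between the edges of the region and the nearest shared region on the same chromosome. Members were thus chosen by the hotspot calls of all 4 libraries, so the presence of AG hotspots and the absence of GG hotspots in them are descriptions and carry no test.

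DNase-seq was carried out on macaque morulae, 2 libraries from AG embryos and 2 from GG embryos. AG embryos hold nuclear chromosomes from sperm only and GG embryos from the oocyte only. In every library the DNase I digestion was the same, 40 U/ml for 5 min at 37 °C. The labels give neither strain, donor animals nor embryo numbers, and do not say whether replicates came from separate embryos, so the spread between them may be technical. Parental origin cannot be told apart from donors or from the way each kind of embryo was made. The lists held 64730 and 85318 hotspots in AG and 93171 and 84865 in GG, without read counts, so the depth of each library is unknown. Hotspots had been called at a false discovery rate of 0.01, and how near a GG library came to a call in a member cannot be read from the lists.

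DNase I cuts DNA where nucleosomes are displaced, so hotspots mark promoters, enhancers, insulators and other sites held open by bound proteins. In mammals the chromosomes from sperm and oocyte enter the embryo with different packaging and DNA methylation. At imprinted loci that difference is kept through the early divisions and decides which parental copy is used. Embryos with chromosomes of a single parental origin allow open chromatin on paternal and maternal chromosomes to be measured apart.

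The 2612 members covered 4.06 Mb in all. They held 2665 hotspots of AG replicate 1, which is 4.12% of that list, and 2656 hotspots of AG replicate 2, or 3.11%. Most were simple: in 2524 members each AG library had a single hotspot, and in 88 at least 1 library had several. Members were 55.3% of the 4727 AG-only regions on these chromosomes, and the other 2115 lay farther than 50 kb from shared open chromatin. The share within 50 kb was 46.5% for GG-only regions. Among regions called in a single library it was 42.4% and 36.6% in AG replicates 1 and 2, and 36.2% and 35.5% in GG replicates 1 and 2. The number of members rests on each library's list. With AG replicate 1 or AG replicate 2 left out, a single AG list suffices and 24727 or 18168 regions met the rule. Without GG replicate 1 there were 4217, and without GG replicate 2 there were 3902. The 5681 GG-only regions within 50 kb were 2.17 times as many as the members. With all lists shortened by score to equal covered length, members numbered 2690 and their GG-only counterparts 2577, a ratio of 0.958.

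Members were mostly between 1 and 2 kb wide, and the AG libraries agreed on part of each. The merged width had a median of 1380 bp with quartiles at 1097 and 1859 bp, and ran from 41 to 6752 bp. Medians of 1002 bp were called in AG replicate 1 and 1015 bp in AG replicate 2. The bases called in both AG libraries had a median of 650 bp, or 46.6% of the member. They made up over 50% of the width in 1180 members (45.2%), and under 10% in 200 members (7.66%). Across members, the log2 bp called in the AG libraries correlated with a Pearson r of 0.302. This is a description over 2612 regions of the same 2 lists, chosen for being called in both.

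**Figure D1:**
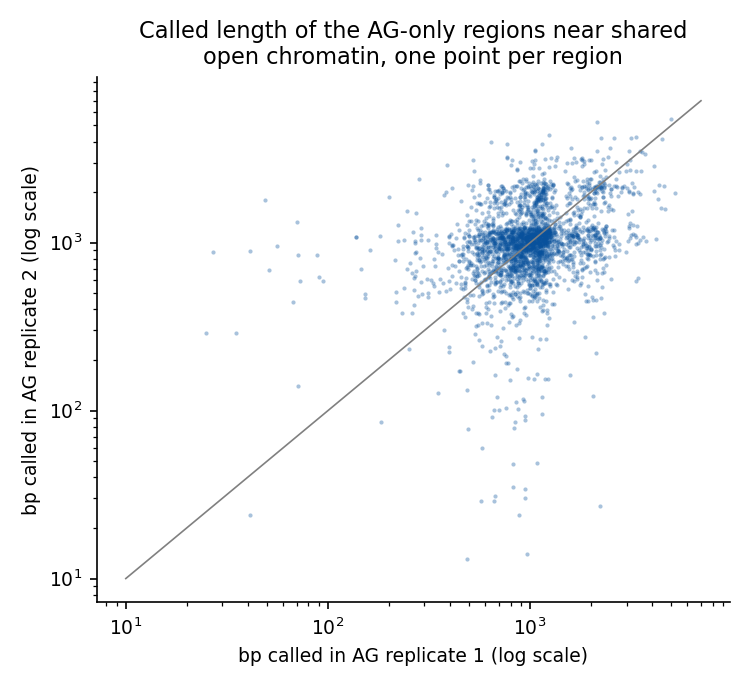
Base pairs called in AG replicate 1 (x axis, log scale) and AG replicate 2 (y axis, log scale) for each of the 2612 members, one point per member, with the line of equal length in grey. Most points lie near 1000 bp in both libraries, and a thin tail of members has a much shorter call in either library.

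Scores of members were middling within their own lists. The score is the authors' value per hotspot, with no stated scale, and was ranked within a list only. The median member lay at the 56.1st percentile of scores in AG replicate 1 and at the 62.6th in AG replicate 2. The top 10% of each list by score held 188 members (7.20%) in AG replicate 1 and 262 (10.03%) in AG replicate 2, and 87 members were in the top 10% of both. AG-only regions farther than 50 kb from shared open chromatin had medians at the 51.9th and 55.3rd percentiles in the same lists. The percentiles in the AG libraries were only loosely related over members (Pearson r 0.261, Spearman rho 0.290, 2612 regions of 2 lists). Members were then put into 4 classes of about equal size by the lower of their percentiles. The median width was 1648 bp in the highest class and 1210 bp in the lowest, and the median share of bases called in both AG libraries was 53.0% in the highest class and 41.9% in the lowest.

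The 5 members with the best score ranks, by the poorer of the ranks in the AG lists, lay on 5 chromosomes. The first was on chromosome 16 from 49112515 to 49117881 (rheMac8, as are all positions here). It ranked 5 of 64730 in AG replicate 1 and 26 of 85318 in AG replicate 2, with 4490 and 4129 bp called. A region shared by all 4 libraries lay 3016 bp away, and the nearest GG hotspot was 4556 bp away. In that neighbouring shared region the AG libraries had 3217 and 3220 bp called, against 1292 and 1492 bp in the GG libraries. The AG values did not overlap the GG values. The log2 AG minus GG difference, taken relative to each library's median shared region, was 1.51 (SE 0.34, limma adjusted p = 0.253 over all shared regions), which did not pass the threshold of 0.05.

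The other 4 had shared neighbours in which the called lengths of the groups overlapped. The member on chromosome 2 from 7090144 to 7091611 ranked 60 and 73, with 1357 and 1394 bp called, 716 bp from a shared region and 864 bp from a GG hotspot. In its neighbour the AG libraries had 2308 and 4227 bp called, against 2258 and 3133 bp in GG. That on chromosome 6 from 105126600 to 105127334 ranked 103 and 183, with 735 and 550 bp called. Its nearest GG hotspot was 19.3 kb away, closer than its shared neighbour at 34.8 kb. On chromosome 19 from 40861015 to 40863159, ranks were 180 and 44, with 2145 bp called in AG replicate 1 and 1165 bp in AG replicate 2. The fifth, on chromosome 10 from 29985772 to 29987044, ranked 204 and 460, with 1183 and 1027 bp called, 4794 bp from a GG hotspot. A high score thus went with members of 735 to 5367 bp, 1 of which lay within 1 kb of a GG hotspot.

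The longest stretch on which the AG libraries agreed was on chromosome 3 from 125766545 to 125773296, where 3657 bp were called in both. AG replicate 1 had 4968 bp called there and AG replicate 2 had 5441 bp, at the 92.3rd and 93.2nd score percentiles. A GG hotspot was 1073 bp away. The member lay 3687 bp from the shared region at 125776984 to 125783460, which is 6477 bp wide. All 6477 bp of that neighbour were called in AG replicate 1 and 5361 bp in AG replicate 2, against 702 bp in GG replicate 1 and 1332 bp in GG replicate 2. The log2 difference was 2.84 (SE 0.41, limma adjusted p = 0.229). The AG libraries did not overlap the GG libraries in this neighbour, which was called over a longer stretch in AG. In the member itself the rule allows no GG call.

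The members that followed, apart from that on chromosome 16 above, had neighbours in which the groups overlapped. On chromosome 14 from 86510863 to 86514534, 3362 bp were called in both AG libraries, and the nearest GG hotspot was 23.8 kb away. On chromosome 19 from 831700 to 835962, 3332 bp were called in both, with the nearest GG hotspot at 15.4 kb. On chromosome 10 from 70605539 to 70608688, 3110 bp of 3150 bp (98.7%) were called in both, the nearest GG hotspot being the shared region itself at 6178 bp. In the shared neighbour on chromosome 14 the AG libraries had 3253 and 1579 bp called, against 2330 and 3284 bp in GG. In that on chromosome 19 they had 2024 and 3896 bp, against 3149 and 2504 bp in GG. In that on chromosome 10 they had 2451 and 2133 bp, against 1902 and 2594 bp in GG. The groups overlapped in all 3.

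Members were often close to a GG hotspot, although none overlapped one. The nearest hotspot of either GG library lay at a median of 3096 bp, with quartiles at 1084 and 7299 bp. It was within 500 bp for 301 members (11.5%), within 1 kb for 602 (23.0%) and within 5 kb for 1659 (63.5%). For AG-only regions far from shared open chromatin, 13.6% had a GG hotspot within 1 kb and 41.2% within 5 kb. Part of that difference is set by the rule, since a shared region holds GG hotspots and members were chosen for lying near one. The nearest GG hotspot belonged to a shared region for 668 members (25.6%). It belonged to a region of a single GG library for 1119 (42.8%), to a region with AG and GG hotspots in 2 or 3 libraries for 660 (25.3%), and to a GG-only region for 165 (6.32%). Without members that had a GG hotspot within 1 kb, 2010 members remained.

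**Figure D2:**
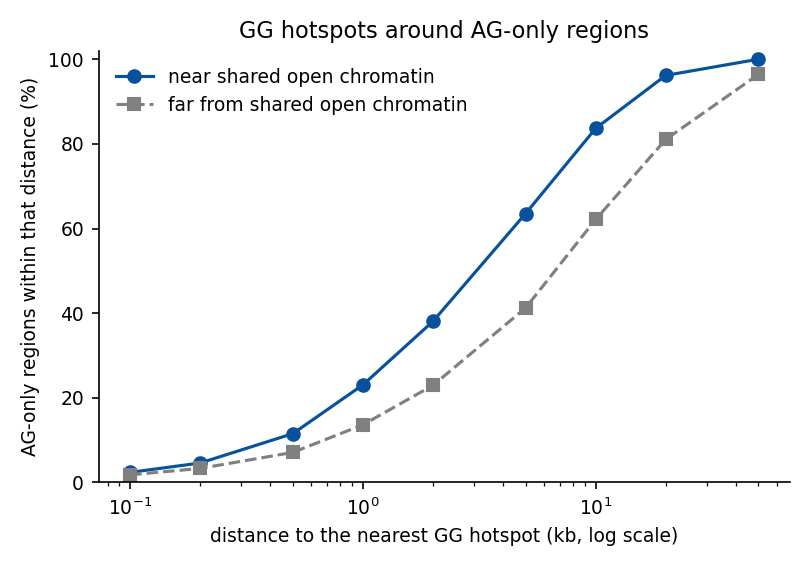
Percentage of AG-only regions (y axis) with a GG hotspot within a given distance (x axis, kb, log scale), for the 2612 members (circles, solid line) and the 2115 AG-only regions far from shared open chromatin (squares, dashed line). At 1 kb the curves stand at 23.0% and 13.6%, and at 10 kb at 83.7% and 62.1%.

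The 5 members farthest from any GG hotspot lay on 5 chromosomes. The first was on chromosome 17 from 13423969 to 13424946, with 739 and 845 bp called in AG replicates 1 and 2 and the nearest GG hotspot 46.6 kb away. Chromosome 6 from 56266397 to 56269693 followed at 45.4 kb, with 3297 and 1106 bp called. The next were chromosome 18 from 48234283 to 48235814 at 44.3 kb, chromosome 10 from 32267359 to 32268911 at 42.8 kb and chromosome 11 from 49151416 to 49153197 at 41.4 kb. At the member on chromosome 10 the AG libraries shared only 23 of 1553 bp, so it is a member by a small overlap. Their scores were between the 13.9th and 83.0th percentiles of the AG lists.

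Gaps to shared open chromatin were spread over the whole range the rule allowed, with a median of 14673.5 bp and quartiles at 5576.5 and 28366 bp. There were 208 members (7.96%) within 1 kb, 402 (15.4%) from 1 to 5 kb, 421 (16.1%) from 5 to 10 kb, 560 (21.4%) from 10 to 20 kb and 1021 (39.1%) from 20 to 50 kb. Over these 5 classes the median width ran only between 1339 and 1460 bp, and the median share called in both AG libraries between 43.6% and 50.5%. GG-only regions within 50 kb had a median gap of 13294 bp, with 10.1% within 1 kb. The smallest gaps were 2 bp on chromosome 15 from 10193892 to 10195295, 7 bp on chromosome 10 from 7695384 to 7696173, and 23 bp on chromosome 12 from 84531551 to 84533184. In each of these the nearest GG hotspot was as close as the shared region, so a GG hotspot began or ended 2 to 23 bp from the member.

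At the other end, the members just inside the limit had gaps of 49920, 49856 and 49840 bp. They lay on chromosome 7 from 92368504 to 92369567 (657 and 1064 bp called in AG replicates 1 and 2), chromosome 5 from 112518177 to 112519026 (576 and 334 bp) and chromosome 12 from 84110797 to 84112962 (1620 and 2094 bp). AG-only regions just outside it had gaps of 50048, 50154 and 50233 bp, on chromosome 10 from 92007851 to 92010289 (1065 and 2142 bp called), chromosome 4 from 30209636 to 30211432 (1609 and 245 bp) and chromosome 11 from 95203761 to 95205954 (755 and 2194 bp). The limit thus cuts through a continuous range of gaps. With limits of 10 kb and 100 kb there were 1031 and 3387 members.

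Shared open chromatin surrounded many members on both sides. A shared region lay within 50 kb on each side of 875 members (33.5%), and 1268 members (48.5%) had a single shared region within that distance. There were 2, 3 and at least 4 of them around 685 (26.2%), 386 (14.8%) and 273 (10.5%) members, up to 10. The 2612 members had 2280 different nearest shared regions, 17.3% of all 13158. Of these, 1993 were the nearest for a single member, 247 for 2, 36 for 3, 3 for 4 and 1 for 5 members. Another member lay within 10 kb of 287 members (10.99%). Among GG-only regions near shared open chromatin, which are more numerous, 24.7% had another within 10 kb. A GG-only region lay within 10 kb of 333 members (12.7%).

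The shared region with 5 members was on chromosome 7, and 4 of these members lay in a row. They began at 68182525, 68185693, 68187216 and 68189354 and lay between 40.8 and 47.9 kb from the shared region. In AG replicate 1 they had 735, 656, 984 and 997 bp called, and in AG replicate 2 they had 1086, 1253, 1126 and 1516 bp. The fifth, from 68215903 to 68216871, had 969 and 775 bp called and lay 14.8 kb from the shared region. In the shared region itself the AG libraries had 1837 and 2729 bp called, against 1122 and 1074 bp in GG (log2 1.32, SE 0.38, limma adjusted p = 0.292). The next clusters had 4 members each, a number that 3 shared regions reached, and the first 2 of these in the order of the regions are given here. On chromosome 2 they began at 112412275, 112413896, 112431763 and 112481995, and on chromosome 10 at 16803561, 16840519, 16844567 and 16880308. In the shared region of the cluster on chromosome 2 the AG libraries had 2231 and 2004 bp called, against 3057 and 4383 bp in GG (log2 -0.41, SE 0.37, limma adjusted p = 0.676). In that of the cluster on chromosome 10 they had 2039 and 1896 bp, against 1957 and 3545 bp in GG (log2 -0.048, SE 0.41, limma adjusted p = 0.971). Of the 3 neighbours, that on chromosome 7 had the longer call in AG and that on chromosome 2 in GG. On chromosome 10 the groups overlapped.

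Hotspots around members were more frequent on the side of the nearest shared region in all 4 libraries, as the rule sets. From 3 to 10 kb away on the side of the nearest shared region, an average position held a hotspot next to 12.1% and 12.3% of members in AG replicates 1 and 2, and 12.8% and 12.1% in GG replicates 1 and 2. At 2 kb on the opposite side the values were 7.12% and 7.77% in AG and 5.28% and 4.25% in GG, without overlap of the groups. Distances were counted from the member's centre, and the widest members, of up to 6752 bp, reach past 2 kb from it. Within a member the rule allows AG hotspots only, so it sets part of the difference at 2 kb. From 3 to 10 kb on the opposite side the values were 4.99% and 5.57% in AG and 4.93% and 4.25% in GG. From 5 to 50 kb towards the shared region, GG replicates were the higher, with 8.85% and 9.05% in AG and 10.8% and 9.97% in GG. These percentages move with the length of each list, and the GG lists covered more of the genome (AG 67.8 and 84.3 Mb, GG 102.1 and 93.2 Mb). Another region with a hotspot of the library lay within 10 kb of 72.4% and 76.6% of members in AG replicates 1 and 2, and of 74.5% and 70.9% in GG replicates 1 and 2.

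**Figure D3:**
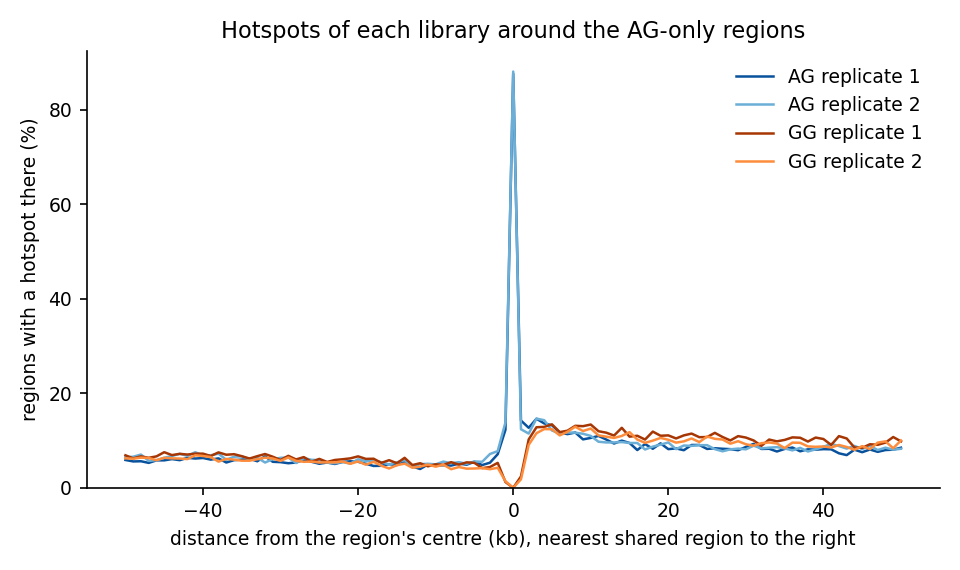
Percentage of the 2612 members with a hotspot of each library (y axis) at 1 kb steps from the member's centre (x axis, kb), turned so that the nearest shared region lies to the right. AG replicates 1 and 2 reach 87.7% and 88.1% at the centre and both GG replicates are at 0 there by the rule, and all 4 lines are higher on the right. At 2 kb on the left, AG replicates stand at 7.12% and 7.77% and GG replicates at 5.28% and 4.25%. The widest members reach past 2 kb from their centre, so the rule sets part of this difference.

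Regions called in a single library were compared between groups by their positions. They are not members, but the rule bears on hotspots beside a member. A GG hotspot that touched a member would have removed it, and an AG hotspot that touched it would have been merged into it. Shares within 10 kb of a member were taken among single-library regions within 50 kb of shared open chromatin. They were 8.46% in AG replicate 1 (95% exact interval 7.98 to 8.96) and 7.77% in AG replicate 2 (7.39 to 8.17). In GG replicates 1 and 2 the shares were 6.35% (5.99 to 6.73) and 6.41% (6.02 to 6.83). The intervals treat regions as independent and cover counting error only. Means were 8.12 ± 0.49% in AG and 6.38 ± 0.042% in GG (SD, n = 2 libraries each), a difference of 1.73 percentage points. The groups did not overlap, and the two-sided exact permutation p was 0.333, the smallest that 2 libraries against 2 allow. The rule bears on these shares, so this p decides nothing about the groups. How much of the difference the rule sets was not tested. Around GG-only regions near shared open chromatin, the shares were 12.1% and 11.7% in AG and 17.3% and 16.9% in GG. The share for AG libraries was 1.27 times that for GG libraries near members, and 0.694 times near GG-only regions. Near GG-only regions the rule bears on the shares in the same way, with the groups exchanged.

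The shared regions next to members were compared between groups by the length called in each library. Each value was log2 of called bp plus 100, relative to the library's median over all 13158 shared regions, and was fitted with limma. Next to members, the median shared region stood above the other shared regions by a log2 of 0.057 and 0.095 in AG replicates 1 and 2, and stood at -0.0065 and -0.029 in GG replicates 1 and 2. The AG minus GG difference of 0.094 is a call 1.07-fold longer in AG relative to the other shared regions, not in bp, and the groups did not overlap. It is given with no test, since the rule bears on the called length of these neighbours, as described below by gap. The difference was -0.0064 when regions and members were called again without AG replicate 1, 0.032 when called again without AG replicate 2, and 0.061 with 10 times the offset. Both AG libraries were above both GG libraries in 735 of the 2280 shared regions next to members (32.2%), against 29.2% of all shared regions. Both were below in 352 (15.4%), against 16.8% of all. These shares are near those of all shared regions. They depend on the scaling: relative to library medians the median AG minus GG difference over all shared regions was 0.12 on the log2 scale, and in unscaled bp it was -0.24. Unscaled, both AG libraries were above in 342 of the shared regions next to members (15.0%, 12.5% of all) and below in 723 (31.7%, 34.6% of all). In unscaled bp the median AG minus GG difference was -0.17 next to members, a shorter call in AG, and -0.26 in the other shared regions. The relative difference of 0.094 is the same with and without the scaling. By limma no shared region passed an adjusted p of 0.05, next to members or elsewhere (0% of all). At an unadjusted p of 0.05, 220 shared regions next to members were higher in AG, which is 9.65% against 7.72% of all, and 89 were lower, which is 3.90% against 4.45% of all. The rule bears on the called length of these neighbours, so the counts next to members are a description and no test of them.

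The difference was larger in the classes with a closer member. For the 207 shared regions with a member within 1 kb, medians relative to the shared regions with no member were 0.17 and 0.054 in AG replicates 1 and 2, and -0.13 and -0.10 in GG replicates 1 and 2. For the 391 with the closest member at 1 to 5 kb they were 0.068 and 0.26 in AG, and -0.095 and -0.13 in GG. The AG minus GG differences were 0.23 and 0.28 in these classes, 1.17-fold and 1.21-fold relative to the shared regions with no member. They were 0.073 at 5 to 10 kb, 0.071 at 10 to 20 kb and 0.020 at 20 to 50 kb, and there the AG and GG libraries overlapped. Most of all in the first class, the rule itself bears on the value: a region next to a shared region stays AG-only only where no GG hotspot of that region reaches it. These values are therefore a description and carry no test. Shared regions next to GG-only regions had differences of the opposite sign, relative to shared regions with no such neighbour. In the same order of gaps these were -0.15, -0.11, -0.058, -0.15 and -0.059. The rule bears on them in the same way, with the groups exchanged.

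**Figure D4:**
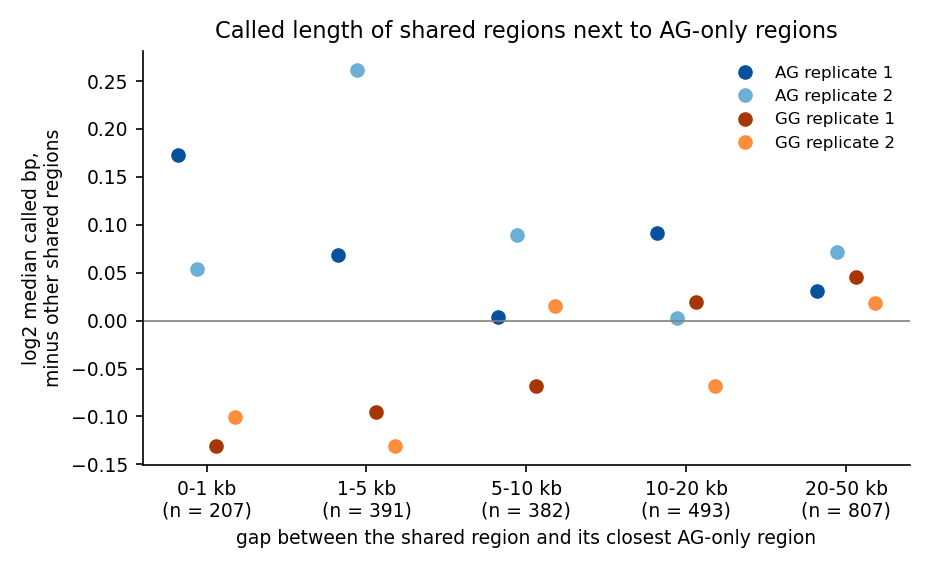
Median called length of shared regions next to members (y axis, log2 bp, minus the median of shared regions with no member), one point per library, by the gap to the closest member (x axis, kb, with the number of shared regions). Within 5 kb both AG libraries lie above 0 and both GG libraries below, and from 5 kb on the groups overlap.

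The shared regions given next were picked after their values were seen, as those next to members with the smallest p in each direction, so their large differences are set by the choice. The smallest limma adjusted p was 0.229 next to members and 0.152 over all shared regions. On chromosome 8 from 40410742 to 40417041 the AG libraries had 5365 and 5142 bp called, against 275 and 703 bp in GG (log2 3.64, SE 0.46). The member beside it, from 40433713 to 40435551, lay 16671 bp away with 1839 and 1182 bp called in AG, and a GG hotspot was 231 bp from it. On chromosome 11 from 52929565 to 52934105 the AG libraries had 4227 and 3839 bp, against 986 and 809 bp in GG (log2 2.41, SE 0.34), with a member 1195 bp away. On chromosome 7 from 51892301 to 51897217 they had 3539 and 4435 bp, against 288 and 864 bp in GG (log2 3.09, SE 0.51), with a member 3631 bp away. Each of these had a limma adjusted p of 0.229, as did the neighbour on chromosome 3 described above.

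The opposite also occurred, with a member beside a shared region that was called over a far longer stretch in GG. On chromosome 14 from 108425010 to 108439937 the AG libraries had 1670 and 970 bp called, against 12846 and 13845 bp in GG (log2 -2.93, SE 0.38, limma adjusted p = 0.229). The member at 108453853 to 108456039, with 1513 and 1104 bp called in AG, lay 13915 bp from it and 12616 bp from the nearest GG hotspot. On chromosome 20 from 70381347 to 70390810 the AG libraries had 901 and 932 bp, against 8454 and 6214 bp in GG (log2 -2.50, SE 0.35, limma adjusted p = 0.229). Its member was 19704 bp away. Neither direction was thus common to all shared regions beside members.

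The rest of the open chromatin around members was compared in windows of 200 kb, with all AG-only and GG-only regions left out. Shared regions stayed in, and every member lies within 50 kb of one, so the rule itself largely sets how much more windows with a member held. In every library they held more than other windows, by a log2 of 1.99 and 1.42 in AG replicates 1 and 2 and 1.52 and 1.49 in GG replicates 1 and 2. AG replicate 2 lay below both GG libraries, and the AG minus GG difference of 0.21 (two-sided exact permutation p = 1) was -0.079 without AG replicate 1. The windows kept the shared and single-library regions beside members, so the rule also bears on the AG against GG values in them. How much of these values it sets was not tested. Of 13132 windows, limma called 0 at an adjusted p of 0.05. At an unadjusted p of 0.05, 29 of the 1948 windows with a member were higher in AG, which is 1.49% against 3.85% of all windows, and 6 were lower, 0.308% against 4.48% of all. Windows with a member held more called bp, so these shares are not set against windows of like content. Whether that content sets the lower shares was not tested. Both AG libraries were above both GG libraries in 554 windows with a member (28.4%), against 20.2% of all, and below in 192 (9.86%), against 18.4% of all. In unscaled bp they were above in 299 (15.3%, 11.03% of all) and below in 525 (27.0%, 28.8% of all).

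Members were found on every chromosome from 1 to 20, and their number followed that of shared regions only in part. There were 19.9 members per 100 shared regions in all, with a range over chromosomes of 14.3 to 27.5 and a median of 18.6. Chromosomes 20 and 19 had the most, 27.5 and 26.9 per 100, followed by chromosomes 15 (23.5), 10 (22.8) and 16 (22.0). Chromosomes 17 and 5 had the fewest, 14.3 and 14.8. Chromosome 19 held 270 members, 10.3% of all, and 7.63% of shared regions. With the full lists it was the only chromosome with more members than GG-only regions near shared open chromatin (270 against 261). On the other 19 the GG-only regions were 1.29 to 3.57 times as many. These ratios move with the length of the lists. At equal covered length members numbered 2690 over all chromosomes and GG-only regions near shared open chromatin 2577. Counts per chromosome are given for the full lists only. On chromosome 19, 87.7% of AG-only regions lay within 50 kb of shared open chromatin, as did 86.1% of GG-only regions. On chromosome 17 these shares were 35.9% and 37.6%. Shared regions numbered 18.7 per Mb on chromosome 19 and 2.70 per Mb on chromosome 17, and both shares were higher where shared regions lay more densely.

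**Figure D5:**
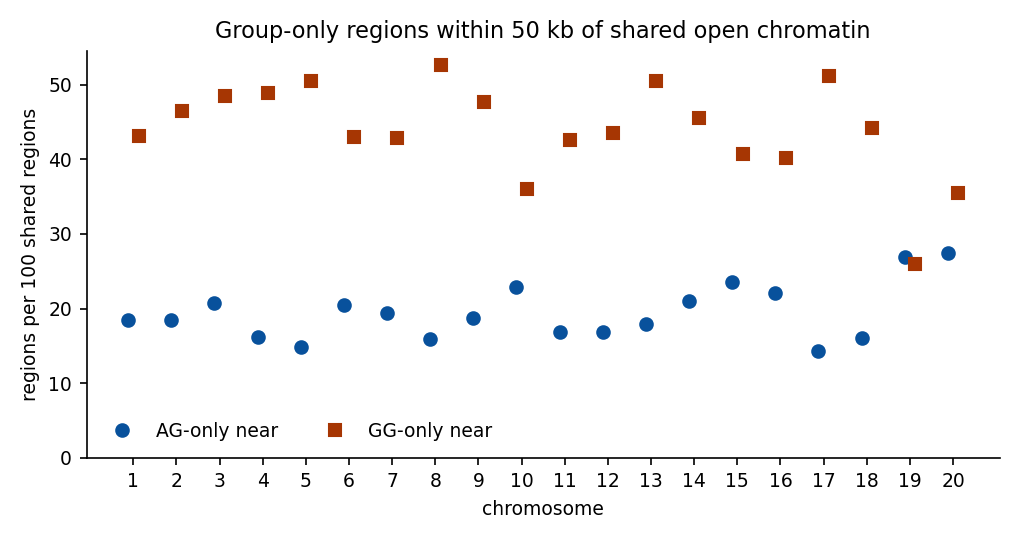
Number of AG-only (circles) and GG-only (squares) regions within 50 kb of shared open chromatin, per 100 shared regions (y axis), on chromosomes 1 to 20 (x axis). AG-only values run from 14.3 to 27.5 and exceed the GG-only value on chromosome 19 alone. Counts are from the full lists, of which those of GG covered more of the genome.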

How the data were processed

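For each library the authors deposited positions and a score per hotspot. The false discovery rate of 0.01 stands in the names of the deposited lists; neither the caller nor the scale of the score is stated in the labels. Positions are on rheMac8, and Bowtie2, SAMtools, Trim Galore and deepTools 3.3.1 are named without roles, per the submitters' processing notes. Depth is unknown, and no batch is given.

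Members, comparisons and named regions were chosen with earlier results of these data known. Named members were the 5 best by the poorer score rank, the 5 with most bp called in both AG libraries, those of the 3 shared regions nearest to most members, the 5 farthest from GG hotspots, the 3 on each side of the gap limit and the 3 smallest gaps. Log2 of called bp was computed from the deposited lists, for shared regions (offset 100 bp) and for windows of 200 kb without AG-only and GG-only regions (offset 500 bp, mean of at least 500 bp). These values were centred on library medians and fitted with limma 3.58.1 in R 4.3.3 (lmFit, eBayes), with Benjamini-Hochberg adjustment over all features. Permutation tests used scipy 1.17.1 in Python 3.11.15, with pandas 2.3.3, numpy 2.4.6 and matplotlib 3.10.9. Region calling and fits were tested on simulated data. Alternatives changed the lists, gap limit, offsets, windows, scaling and libraries. Genes and sequences, part of the planned naming of regions, are not given: a matching genome was not used here.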

Additional observations from a re-analysis of the deposited data

How the results depend on the processing

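The number of members, 2612, was 1262 when lists were cut to their higher-scoring 50% and 1031 with a gap limit of 10 kb, and ran from 3902 to 24727 with 1 library left out, where by construction fewer libraries have to meet the rule. The share of AG-only regions within 50 kb, 55.3%, was 49.6% in the higher-scoring 50%, 53.0% at equal covered length, 52.4% with no GG hotspot within 1 kb, 44.4 to 61.0% with 1 library left out, and 21.8% and 71.7% at 10 and 100 kb. By limma 0 shared regions were called in all 15 alternatives. For windows limma called 0 in the main setting, 5 with 10 times the offset, 13 with a variance trend and 0 to 2 with 1 library left out. The relative difference at shared regions next to members (log2 0.094) ran from 0.075 to 0.11 with 1 library left out, and from -0.0064 to 0.14 with members also called again, an alternative chosen after the data were seen, the lowest without AG replicate 1. The relative difference of windows with a member (log2 0.21) was -0.091 at equal covered length (the cause was not tested) and ran from -0.079 (without AG replicate 1) to 0.48 (without AG replicate 2) with 1 library left out. With members also called again it was -0.77 and -0.81 without GG replicates 1 and 2, and 1.61 and 1.81 without AG replicates 1 and 2, where regions of the remaining library leave the windows by construction. The difference for single-library hotspots, 1.73 percentage points, kept its sign in its 11 alternatives (0.909 to 3.21). The rule bears on this difference in each of them. With the replicate number as a block, limma called 0 shared regions and 0 windows, and the difference between same-numbered libraries was 1.73 (exact p = 0.5, the smallest possible). Deviations of same-numbered libraries were nearly uncorrelated (-0.016 over shared regions, -0.029 over windows). With 4 libraries this cannot show whether same-numbered libraries were prepared together, and the labels do not say.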

Other observations

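The windows of 200 kb given here were picked after their values were seen, as those with a member and the smallest p in each direction, in open chromatin other than AG-only and GG-only regions, so the size of their differences is set by the choice. The smallest p among windows with a member that were higher in AG was on chromosome 15 from 400001 to 600000. There the AG libraries had 4379 and 6090 bp of such chromatin, against 785 and 688 bp in GG (log2 2.47, SE 0.50, limma adjusted p = 0.510). Among those lower in AG it was on chromosome 14 from 108400001 to 108600000, with 3205 and 4027 bp in AG, against 20690 and 18967 bp in GG (log2 -2.04, SE 0.51, limma adjusted p = 0.510), in the window that begins just before the shared region at 108425010.

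Members were densest on chromosome 19, counted after the data were seen. The window of 1 Mb from 11000001 to 12000000 held 13 members beside 8 GG-only regions and 26 shared regions, and that from 19000001 to 20000000 held 12 members beside 2 GG-only and 21 shared regions. Chromosome 3 from 42000001 to 43000000 followed with 11 members, 7 GG-only and 15 shared regions. Most windows of 1 Mb with any member had few: 500 had 1, 307 had 2 and 161 had 3.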
